A study of Homo sapiens with 12 samples.

Results

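Transcripts of 53 genes of DNA replication and S phase were followed in FaDu cells with and without STING, before and after radiation. The genes were chosen by name from a list of licensing factors, replication fork proteins, polymerases, enzymes of nucleotide synthesis and S phase regulators, and all 53 were found among the 58288 genes of the deposited table, each under 1 identifier. FaDu is an established human head and neck squamous cell carcinoma line, and STING is the adaptor of cytosolic DNA sensing, whose gene the table names TMEM173. The study compared FaDu cells carrying STING (WT) with STING KO cells, each without radiation or irradiated with 2 Gy a day on 4 days, and every one of these 4 groups holds 3 libraries. Both lines were made with lentiviral Cas9 and a lentiviral guide RNA, non-targeting in the WT line and directed against STING in the KO line, followed by puromycin selection, and whether either line is a clone was not given. The time between the last fraction and RNA collection was not given either. WT and STING KO are each 1 line, so STING loss cannot be told apart from other differences between the lines. The values are transcripts per 1000000 (TPM), which are scaled for gene length and can be compared between genes.

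DNA replication is prepared in G1, when the origin recognition complex, CDC6 and CDT1 load the MCM helicase onto origins. At the G1/S transition cyclin E and the CDC7 kinase trigger the assembly of active forks, where CDC45 and GINS join the helicase. There polymerase alpha lays down primers, and polymerases delta and epsilon copy the strands, tethered by the sliding clamp PCNA. Many of these genes are transcribed under E2F control and peak around S phase, whereas most genes of mitosis peak in G2 and M, and ionizing radiation is known to activate checkpoints that hold cells in G1, S or G2.

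Each library summed to 1000000 TPM, so depth is unknown, and error is given by the spread over the libraries of a group. Between 14860 and 15292 genes per library had a TPM of at least 1, and Pearson's r of log2(TPM + 1) across genes, which are not independent replicates, was 0.983 to 0.987 within groups. TMEM173 ranged from 21.1 to 26.1 TPM in the WT libraries and from 5.18 to 7.41 TPM in the STING KO libraries. All 7 squamous epithelial markers examined were expressed, their sum ranging from 6396 to 9013 TPM, while DCN, LUM, COL1A2, PTPRC, CD3E and PECAM1, which mark fibroblasts, leukocytes or endothelium, were below 0.5 TPM in every library. COL3A1 was too, and COL1A1, CD68, VWF and CDH5 stood at 2.60 to 31.1 TPM. The labels number the libraries but do not say that they came from separate cultures, so the p-values measure the spread between these libraries, which may be technical.

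E2F words were common in the promoters of these genes, and the CHR element of mitosis genes was rare. RefSeq windows from 250 bases before to 50 bases after the annotated start (GRCh38.p14) were matched by symbol for 46 of the 53 genes, the exceptions being CCNE2, GINS4, MCM4, MCM5, POLD3, RPA2 and RPA3. An E2F word, defined as TTTCCCGC, TTTGGCGC, TTTCGCGC or TTTGCCGC on either strand, was present in 22 of the 46 windows (47.8%), against 5.38% of the 10233 tested genes with a window and 3.33% of all 27305 windows. It was found in 6 of 9 licensing, 4 of 6 polymerase, 4 of 11 fork, 3 of 7 firing, 2 of 5 chromatin, 2 of 3 G1/S and 1 of 5 nucleotide synthesis genes. The word TTTGAA, the core of the CHR element known from promoters of G2 and M phase genes, was present in 2 of the 46 windows (4.35%), those of DBF4 and RRM1, but in 11 of the 17 matched mitosis genes (64.7%). It was present in 9.48% of tested genes. The CCAAT box occurred in 25 windows (54.3%) against 36.8% of tested genes. E2F words overlapped each other in MCM2 and MCM6, and overlapped CCAAT in MCM7. Such matches describe letters and are not shown to be bound sites.

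The windows of CLSPN, MCM3 and MCM7 are shown because these 3 genes passed the test in a comparison below. Each holds an E2F word within 10 bases of the start. How often other windows hold a word that near the start was not tested. The 3 windows are written 5′ to 3′ on the minus strand, on which all 3 genes lie, with E2F words of either strand in capitals.
CLSPN, chr1:35769929-35770228: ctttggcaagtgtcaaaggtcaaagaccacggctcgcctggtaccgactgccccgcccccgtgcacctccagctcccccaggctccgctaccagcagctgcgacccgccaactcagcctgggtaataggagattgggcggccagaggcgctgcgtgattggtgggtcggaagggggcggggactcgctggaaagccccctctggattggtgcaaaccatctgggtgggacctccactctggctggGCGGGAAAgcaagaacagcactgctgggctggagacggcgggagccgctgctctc
MCM3, chr6:52284693-52284992: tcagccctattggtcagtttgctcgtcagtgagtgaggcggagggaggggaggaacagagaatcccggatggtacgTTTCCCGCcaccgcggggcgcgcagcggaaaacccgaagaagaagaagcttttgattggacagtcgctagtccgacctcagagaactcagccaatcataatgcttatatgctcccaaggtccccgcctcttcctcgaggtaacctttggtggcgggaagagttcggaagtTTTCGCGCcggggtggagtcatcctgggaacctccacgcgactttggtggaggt
MCM7, chr7:100101348-100101647: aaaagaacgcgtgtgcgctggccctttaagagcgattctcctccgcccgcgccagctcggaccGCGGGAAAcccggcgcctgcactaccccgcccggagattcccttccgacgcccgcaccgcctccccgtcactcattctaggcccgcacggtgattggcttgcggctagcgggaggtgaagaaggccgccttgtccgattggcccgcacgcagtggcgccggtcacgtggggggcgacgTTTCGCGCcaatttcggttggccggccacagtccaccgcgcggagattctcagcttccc
The word in CLSPN began 5 bases before the start. MCM3 held a word 174 bases and another 4 bases before the start, and MCM7 held words 187 and 9 bases before it. The start is that of the RefSeq window, and it differs from the 5′ end of the GENCODE gene given with the results below. The RefSeq start of CLSPN lies 11 bases upstream of that end, and those of MCM3 and MCM7 lie 139 and 543 bases downstream, so the MCM7 window falls within the GENCODE gene.

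All 53 genes were expressed in every library. Their mean TPM over the 12 libraries ranged from 7.05 for CCNE1 to 392 for TK1, with a median of 71.8, and the median gene stood at the 83.4th percentile of the 15973 genes tested. The licensing genes had the highest median level (172 TPM), followed by nucleotide synthesis (122 TPM), chromatin genes (113 TPM), fork genes (77.2 TPM), polymerases (46.2 TPM), firing genes (39.5 TPM) and G1/S regulators (23.2 TPM). Subunits were closer in level in some complexes than in others. The 6 subunits of the MCM helicase lay within 1.67-fold of each other, from MCM6 at 172 TPM to MCM4 at 288 TPM, and the 5 subunits of the clamp loader RFC lay within 1.74-fold. The 4 GINS subunits differed 4.10-fold, from 17.6 TPM for GINS4 to 72.1 TPM for GINS1. The small subunit of ribonucleotide reductase, RRM2, stood at 53.4 TPM and the large subunit RRM1 at 246 TPM, a 4.61-fold difference. Annotated genes whose mean TPM reached 1 overlap 19 of the 53 genes, and 9 have pseudogenes named after them, so reads may have been shared there.

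**Figure D1:**
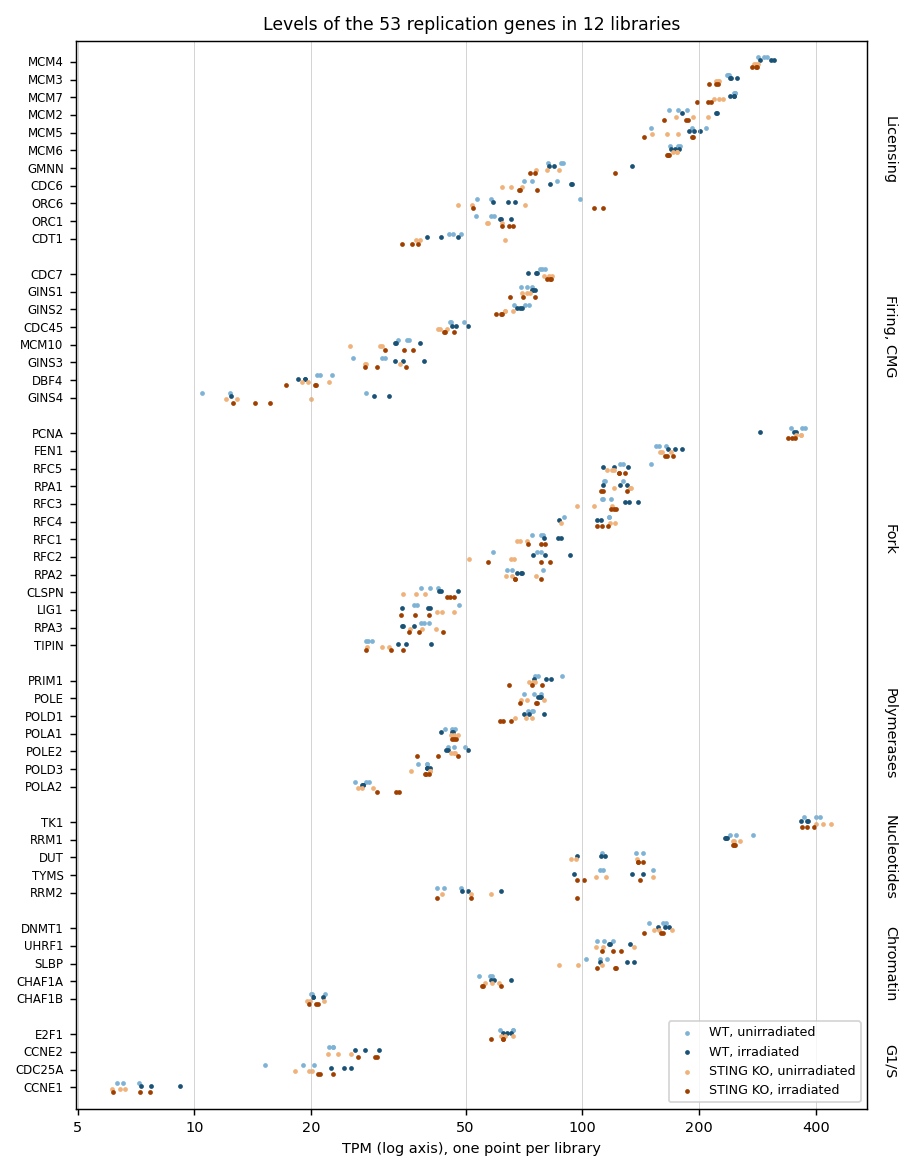
TPM (log axis) of the 53 genes by role, with 1 point for each of the 12 libraries, coloured by group. For 40 genes all 12 libraries lie within 1.5-fold of each other, a count not taken over all tested genes. Irradiated and unirradiated groups do not overlap for 17 genes in WT (32.1%) and 15 in STING KO cells (28.3%). Over all tested genes the shares are 24.8% and 24.3%. STING KO and WT groups do not overlap for 9 genes without (17.0%) and 15 after radiation (28.3%), against 20.6% and 24.1%.

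Most of the 53 genes stayed within a 1.5-fold range over the 12 libraries. For 40 of the 53 genes the highest of the 12 libraries was within 1.5-fold of the lowest, and for 16 genes within 1.2-fold. Only GINS4 (3.04-fold), ORC6 (2.36-fold) and RRM2 (2.30-fold) spanned at least 2-fold over the 12 libraries. These counts were not taken over all tested genes. The coefficient of variation within groups had a median of 5.57%. The summed TPM of the 53 genes was 5236 to 5363 in unirradiated WT, 5347 to 5425 in irradiated WT, 5105 to 5216 in unirradiated STING KO and 5136 to 5237 in irradiated STING KO libraries. The STING KO ranges lay below the WT ranges in each arm, but under median-of-ratios scaling those of the unirradiated libraries overlapped (WT 5132 to 5393, STING KO 5179 to 5267).

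Differences were tested with limma on log2(TPM + 1) across the 15973 genes that reached a TPM of 1 in at least 3 libraries, with Benjamini-Hochberg adjustment and a threshold of 0.05. Fold changes are on this scale, which understates the change of genes with low TPM. All 53 genes passed the filter on low values. Since RNA was taken from whole cultures, fewer cells in S phase and less of a transcript per cell cannot be told apart in these values. On the effect of STING loss, the authors reported by flow cytometry no cell cycle changes in their Cas9 STING KO model, at baseline or after radiation. Whether radiation itself changed the cell cycle is not stated there.

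The first question was whether radiation altered replication transcripts in WT cells. None of the 53 genes passed the threshold, against 3.74% of all tested genes (597). The estimates were positive for 30 genes and negative for 23, with a median log2 fold change of 0.032, against 0.017 for all tested genes, and a range of -0.27 to 0.53. Unadjusted p-values under 0.05 were found for 12 genes, 11 of them with higher and 1 with lower values after radiation, which is 22.6% of the 53 against 18.2% of all tested genes. The 95% interval stayed within a 1.5-fold change in either direction for 47 genes and within a 2-fold change for 52, GINS4 being the exception. Of the 15973 tested genes, 11036 and 14592 stayed within these bounds. The median SE was 0.12 for all tested genes and 0.074 for the 53 genes. The groups did not overlap for 17 genes (32.1%), against 24.8% of all tested genes.

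The estimates nearest the threshold were those of the G1/S regulators CDC25A and CCNE2 and of TIPIN. The TPM of CDC25A was 19.02, 15.2 and 20.3 in unirradiated WT, 25.3, 22.5 and 24.3 in irradiated WT, 19.8, 18.2 and 20.1 in unirradiated STING KO and 20.9, 22.8 and 21.03 in irradiated STING KO libraries. All irradiated WT libraries lay above all unirradiated WT libraries, and the log2 fold change of this phosphatase, which activates cyclin-dependent kinases, was 0.39 ± 0.097 (SE, adjusted p = 0.053 by limma) in WT and 0.15 ± 0.097 (SE, adjusted p = 0.47 by limma) in STING KO cells. In the unirradiated WT libraries CCNE2 stood at 22.7, 22.2 and 22.8 TPM, in the irradiated WT libraries at 29.99, 27.5 and 25.98, in the unirradiated STING KO libraries at 23.5, 25.4 and 22.1 and in the irradiated STING KO libraries at 26.4, 29.6 and 29.2. For CCNE2, a cyclin E, neither line's irradiated libraries overlapped its unirradiated libraries, and the log2 fold change was 0.29 ± 0.072 (SE, adjusted p = 0.056 by limma) in WT and 0.26 ± 0.072 (SE, adjusted p = 0.082 by limma) in STING KO cells. CCNE1 was measured at 7.20, 6.32 and 6.55 TPM in WT and 6.45, 6.61 and 6.14 in STING KO cells without radiation, and at 9.18, 7.27 and 7.75 in WT and 6.17, 7.67 and 7.25 in STING KO cells after it. CCNE1, the other cyclin E and the lowest of the 53 genes in level, had a log2 change of 0.23 ± 0.099 (SE, adjusted p = 0.25 by limma) in WT cells, where the groups did not overlap. E2F1, the transcription factor of the G1/S group, stayed between 58.2 and 66.3 TPM in all 12 libraries.

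Of the 13 fork genes, 7 had positive and 6 negative estimates after radiation of WT cells, with a median of 0.054 on the log2 scale and none past the threshold. TIPIN had TPM values of 28.6, 27.7 and 28.05 (WT, unirradiated), 33.6, 40.7 and 35.1 (WT, irradiated), 31.8, 30.4 and 27.9 (STING KO, unirradiated) and 27.7, 34.4 and 32.1 (STING KO, irradiated). TIPIN, which protects stalled forks together with TIMELESS, was higher in every irradiated than in every unirradiated WT library, with a log2 change of 0.36 ± 0.091 (SE, adjusted p = 0.061 by limma), and the STING KO groups overlapped (log2 fold change 0.060). After radiation it was -0.21 ± 0.091 (SE, adjusted p = 0.26 by limma) for STING KO against WT. The TPM of RFC3 was 113, 118 and 112 in unirradiated WT, 139, 132 and 129 in irradiated WT, 107, 119 and 96.6 in unirradiated STING KO and 122, 118 and 120.3 in irradiated STING KO libraries. RFC3, a clamp loader subunit, had a log2 change of 0.22 ± 0.068 (SE, adjusted p = 0.12 by limma) in WT cells, and the groups did not overlap. In the unirradiated WT libraries FEN1 stood at 157, 155 and 164 TPM, in the irradiated WT libraries at 180.1, 173 and 167, in the unirradiated STING KO libraries at 169, 160.3 and 158 and in the irradiated STING KO libraries at 171, 165 and 163. FEN1, which cuts the flaps of Okazaki fragments, had non-overlapping WT groups and a log2 change of 0.12 ± 0.045 (SE, adjusted p = 0.18 by limma). RFC1 was measured at 74.1, 78.3 and 79.4 TPM in WT and 67.8, 71.9 and 69.02 in STING KO cells without radiation, and at 86.7, 87.9 and 79.7 in WT and 72.5, 78.2 and 80.3 in STING KO cells after it. RFC1, the large clamp loader subunit, showed log2 fold changes of 0.13 ± 0.056 (SE, adjusted p = 0.25 by limma) in WT and 0.14 ± 0.056 (SE, adjusted p = 0.21 by limma) in STING KO cells, with no overlap between the groups in either line. The TPM of RPA3 was 38.3, 40.2 and 39.2 in unirradiated WT, 34.4, 36.9 and 34.2 in irradiated WT, 41.9, 38.7 and 35.9 in unirradiated STING KO and 43.7, 35.8 and 37.9 in irradiated STING KO libraries. RPA3, the small subunit of the single-strand binding protein RPA, had the most negative estimate of the fork group in WT cells, -0.15 ± 0.079 (SE, adjusted p = 0.34 by limma), without overlap between the WT groups, while the STING KO groups overlapped. PCNA, the sliding clamp, stood between 287 and 375 TPM, with log2 fold changes of -0.14 in WT and -0.065 in STING KO cells and adjusted p-values (limma) of 0.36 and 0.7.

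Radiation of STING KO cells gave 1 of 53 genes past the threshold, CLSPN, which was higher after radiation, against 3.69% of all tested genes (590) in either direction and 2.00% (319) in the upward direction. CLSPN encodes claspin, the adaptor through which ATR activates the checkpoint kinase CHK1 at stalled forks, and spans positions 35720218 to 35769967 of chromosome 1 (GRCh38, minus strand). The TPM of CLSPN was 40.4, 38.4 and 42.6 in unirradiated WT, 42.7, 47.9 and 43.2 in irradiated WT, 34.6, 39.4 and 37.3 in unirradiated STING KO and 44.7, 45.7 and 46.8 in irradiated STING KO libraries. The irradiated STING KO libraries lay above all unirradiated libraries of either line, and the highest unirradiated and the lowest irradiated WT library nearly met. CLSPN rose 1.23-fold in STING KO cells, a log2 change of 0.30 ± 0.065 (SE, adjusted p = 0.036 by limma). In WT cells the log2 fold change was 0.14 (95% interval -0.0095 to 0.28, adjusted p = 0.31), and the difference between the lines, 0.16 (95% interval -0.045 to 0.37), did not pass the test (limma adjusted p = 0.84). The call did not hold under 5 of 8 other settings, including median-of-ratios scaling (adjusted p = 0.054) and a fit to the 6 STING KO libraries alone (adjusted p = 0.11). It was also lost in 7 of the 12 fits with 1 library left out, those without any irradiated STING KO library, unirradiated STING KO replicate 1 or 3, unirradiated WT replicate 1 or irradiated WT replicate 3 (adjusted p = 0.051 to 0.11).

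Over the 53 genes, 29 had positive and 24 negative estimates in STING KO cells, with a median of 0.0099 against 0.019 for all tested genes and a range of -0.30 to 0.60. Under median-of-ratios scaling the split was 25 positive and 28 negative. The 95% interval stayed within 1.5-fold for 46 genes and within 2-fold for 52, against 11006 and 14618 of the 15973 tested genes. The groups did not overlap for 15 genes (28.3%), against 24.3% of all tested genes. Unadjusted p-values under 0.05 were found for 13 genes (24.5%), 9 higher and 4 lower, against 18.1% of all tested genes.

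In the polymerase group, POLA2 and POLD1 had estimates of opposite sign after radiation of STING KO cells. POLA2 had TPM values of 28.2, 27.7 and 25.9 (WT, unirradiated), 27.02, 27.3 and 27.2 (WT, irradiated), 28.9, 27.02 and 26.4 (STING KO, unirradiated) and 33.8, 29.5 and 32.99 (STING KO, irradiated). POLA2, the regulatory subunit of polymerase alpha, had irradiated STING KO values above those of every other library, with a log2 change of 0.22 ± 0.063 (SE, adjusted p = 0.092 by limma). The TPM of POLD1 was 74.8, 72.4 and 73.9 in unirradiated WT, 72.9, 70.8 and 79.6 in irradiated WT, 71.4, 66.996 and 74.2 in unirradiated STING KO and 62.3, 65.6 and 61.3 in irradiated STING KO libraries. POLD1, the catalytic subunit of polymerase delta, had its lowest values in the 3 irradiated STING KO libraries, with a log2 change of -0.16 ± 0.056 (SE, adjusted p = 0.15 by limma). In WT cells all 7 polymerase genes had log2 fold changes between -0.017 and 0.055, and the 95% interval of each stayed within 1.2-fold. This held for 3714 of the 15973 tested genes. In the unirradiated WT libraries POLE stood at 70.7, 78.3 and 75.2 TPM, in the irradiated WT libraries at 78.4, 76.8 and 77.7, in the unirradiated STING KO libraries at 69.5, 79.6 and 72.2 and in the irradiated STING KO libraries at 75.7, 68.9 and 76.6. POLE, the catalytic subunit of polymerase epsilon, had the largest of these WT estimates, 0.055 ± 0.063 (SE, adjusted p = 0.71 by limma), and its WT groups overlapped. PRIM1 was measured at 75.4, 88.8 and 76.99 TPM in WT and 75.4, 74.5 and 72.7 in STING KO cells without radiation, and at 74.8, 80.8 and 82.97 in WT and 74.03, 64.9 and 78.9 in STING KO cells after it. PRIM1, the catalytic subunit of primase, overlapped between all groups, and its log2 fold change between unirradiated STING KO and WT cells was -0.11 ± 0.082 (SE, adjusted p = 0.6 by limma).

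**Figure D2:**
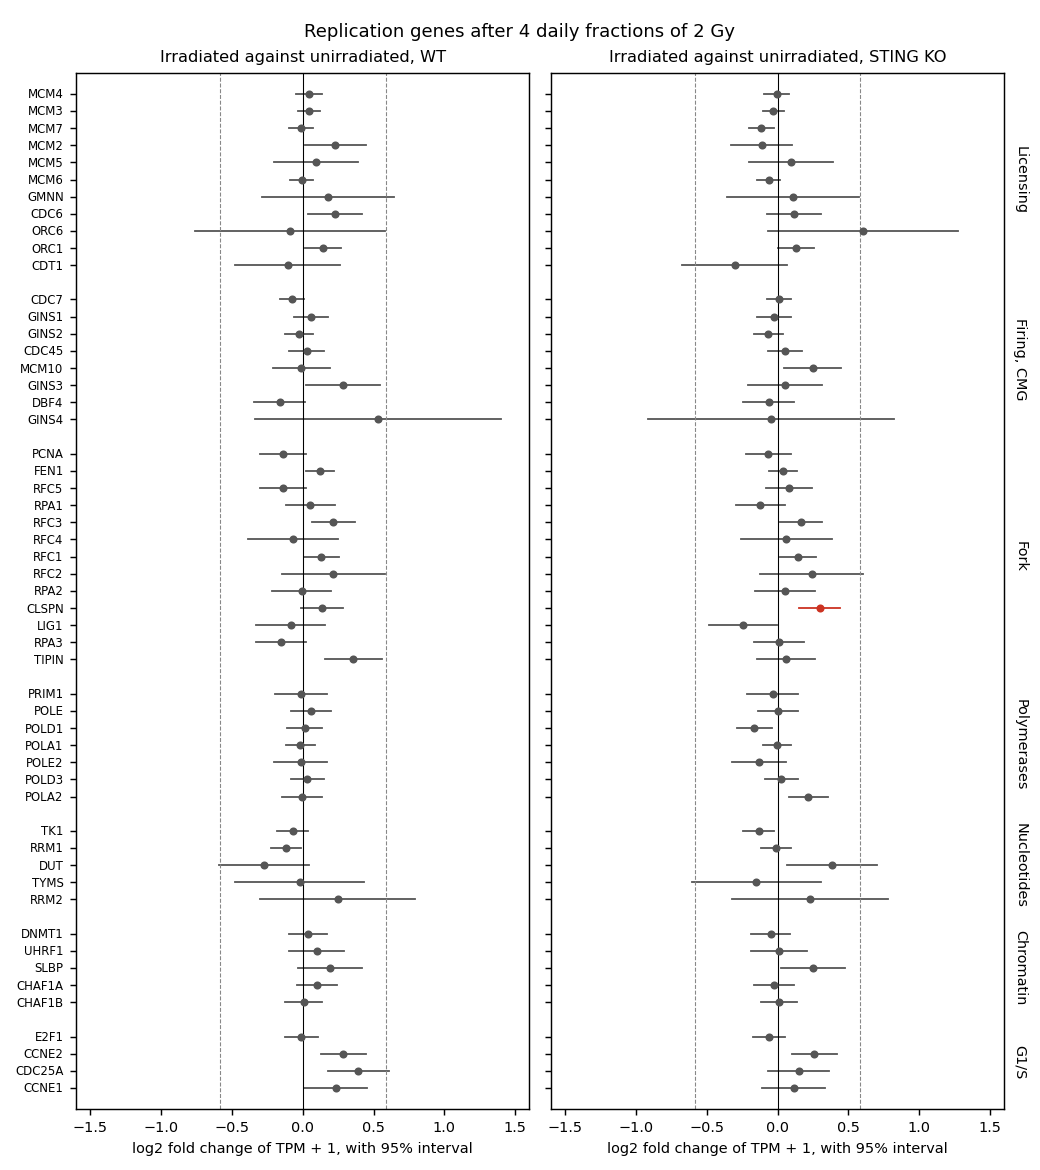
Log2 fold change of TPM + 1 after 4 daily fractions of 2 Gy for the 53 genes, in WT (left) and STING KO cells (right), with 95% intervals from limma (3 against 3 libraries). Red marks an adjusted p under 0.05 and dashed lines mark a 1.5-fold change. CLSPN in STING KO cells is the 1 red interval, and most intervals lie between the dashed lines.

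No firing or chromatin gene passed the threshold either. Irradiated and unirradiated groups did not overlap for 4 of the 8 firing genes in WT (50%) and 2 in STING KO cells (25%). Over all tested genes the shares were 24.8% and 24.3%. The TPM of MCM10 was 33.5, 35.8 and 35.4 in unirradiated WT, 32.9, 33.1 and 38.2 in irradiated WT, 30.003, 30.4 and 25.2 in unirradiated STING KO and 34.7, 30.9 and 36.6 in irradiated STING KO libraries. For MCM10, which helps activate the loaded helicase, the unirradiated STING KO libraries were below all others, with log2 fold changes of 0.25 ± 0.091 (SE, adjusted p = 0.17 by limma) after radiation of STING KO cells and -0.29 ± 0.091 (SE, adjusted p = 0.18 by limma) for STING KO against WT without radiation. In the unirradiated WT libraries SLBP stood at 116, 111 and 102 TPM, in the irradiated WT libraries at 136, 131 and 111, in the unirradiated STING KO libraries at 112, 97.3 and 87.1 and in the irradiated STING KO libraries at 121, 122 and 109. SLBP, which binds the stem loop of histone mRNAs and is needed to process them, had log2 fold changes of 0.19 ± 0.10 (SE, adjusted p = 0.36 by limma) after radiation in WT and 0.25 ± 0.10 (SE, adjusted p = 0.22 by limma) in STING KO cells. The groups of SLBP overlapped in each line. CHAF1B, a subunit of the histone chaperone CAF-1, stayed between 19.5 and 21.7 TPM in all libraries, and DNMT1, the maintenance DNA methyltransferase, between 144 and 170.4 TPM.

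Of the 5 nucleotide synthesis genes, DUT, TYMS and RRM2 varied within groups by mean coefficients of variation of 11.5%, 19.9% and 20.1%, and RRM1 and TK1 by 2.64% and 3.81%. DUT was measured at 138, 112 and 143 TPM in WT and 93.4, 96.1 and 138 in STING KO cells without radiation, and at 112, 115 and 97.04 in WT and 143, 139 and 139 in STING KO cells after it. DUT, which hydrolyses dUTP, had log2 fold changes of -0.27 ± 0.14 (SE, adjusted p = 0.35 by limma) after radiation in WT and 0.38 ± 0.14 (SE, adjusted p = 0.18 by limma) in STING KO cells. Of the 53 genes it had the smallest p for a difference between the radiation effects of the lines, 0.66 (SE 0.20, limma unadjusted p = 0.0081, adjusted p = 0.67). Without unirradiated STING KO replicate 3, in which DUT was 138 TPM against 93.4 and 96.1 TPM in the other libraries of its group, the effect in STING KO cells was 0.56 (adjusted p = 0.034). DUT has 8 annotated pseudogenes, and their part in these values was not tested. TYMS, thymidylate synthase, ranged from 95.1 to 152 TPM with log2 fold changes of -0.022 in WT and -0.15 in STING KO cells, and each group spanned most of that range. TK1, thymidine kinase and the most abundant of the 53 genes, had log2 fold changes of -0.070 (adjusted p = 0.52) and -0.13 (adjusted p = 0.18) by limma. RRM1 had non-overlapping groups in WT cells, with a log2 change of -0.12 ± 0.048 (SE, adjusted p = 0.23 by limma).

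Without radiation, no replication gene separated STING KO from WT cells past the threshold, against 1.73% of all tested genes (276). The median log2 fold change was -0.020, against -0.021 for all tested genes, with 18 positive and 35 negative estimates and a range of -0.29 to 0.17. This split depended on scaling, with 29 positive and 24 negative estimates under median-of-ratios factors and 28 and 25 under quantile normalization. All 7 genes with an unadjusted p under 0.05 (13.2% of the 53) were lower in STING KO cells, against 14.3% of all tested genes in either direction, of which 1412 of 2292 were lower. Further, 9 genes (17.0%) had groups that did not overlap, against 20.6% of all tested genes. The 95% interval stayed within 1.5-fold for 49 genes and within 2-fold for all 53, against 11357 and 14599 of the 15973 tested genes. RFC2 had TPM values of 76.3, 58.9 and 78.04 (WT, unirradiated), 92.7, 80.1 and 74.6 (WT, irradiated), 51.1, 66.5 and 65.6 (STING KO, unirradiated) and 82.7, 78.4 and 57.1 (STING KO, irradiated). RFC2, a clamp loader subunit, had the largest estimate of the fork group here, -0.22 ± 0.16 (SE, adjusted p = 0.61 by limma), with overlapping groups. With 1 library left out it ranged from -0.34 (without unirradiated WT replicate 2) to -0.094 (without unirradiated STING KO replicate 1), and no fit called it.

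After radiation, 2 of 53 genes were lower in STING KO than in WT cells past the threshold, MCM7 and MCM3, against 3.59% of all tested genes (573) in either direction and 2.66% (425) in the downward direction. Both encode subunits of the MCM helicase. MCM7 spans positions 100092728 to 100101940 of chromosome 7 (GRCh38, minus strand) and overlaps MIR25, a microRNA gene it hosts, and AP4M1 on the other strand, both with a mean TPM above 1. In the unirradiated WT libraries MCM7 stood at 247, 247 and 245 TPM, in the irradiated WT libraries at 240.1, 246 and 247, in the unirradiated STING KO libraries at 229.6, 218 and 225 and in the irradiated STING KO libraries at 214, 198 and 210.3. Every STING KO library was below every WT library, and the irradiated STING KO libraries were the lowest. MCM7 was 0.849 times its WT level in irradiated STING KO cells, a log2 fold change of -0.24 ± 0.039 for STING KO against WT (SE, adjusted p = 0.0088 by limma). Without radiation the log2 fold change was -0.13 ± 0.039 (SE, adjusted p = 0.15 by limma), and the difference between these effects, -0.10 (95% interval -0.23 to 0.021), did not pass the test (adjusted p = 0.81). Radiation itself gave -0.012 in WT and -0.11 ± 0.039 (SE, adjusted p = 0.15 by limma) in STING KO cells.

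MCM3 spans positions 52264009 to 52284881 of chromosome 6 (GRCh38, minus strand), and no annotated gene overlaps it. MCM3 was measured at 237, 238 and 236 TPM in WT and 225, 220.4 and 224 in STING KO cells without radiation, and at 241, 250.2 and 242 in WT and 221, 223 and 212 in STING KO cells after it. As for MCM7, no STING KO library reached the WT range. In irradiated cells the log2 fold change was -0.16 ± 0.034 (SE, adjusted p = 0.033 by limma), or 0.896 times the WT level, and in unirradiated cells -0.086 ± 0.034 (SE, adjusted p = 0.29 by limma). The MCM7 call was lost only in a fit to the 6 irradiated libraries alone (adjusted p = 0.081), whereas MCM3 lost its call under 4 of 8 other settings, among them median-of-ratios scaling (adjusted p = 0.058) and eBayes without trend (adjusted p = 0.10). MCM3 also lost it in 8 of the 12 fits with 1 library left out, those without any irradiated library of either line or unirradiated STING KO replicate 2 or 3 (adjusted p = 0.051 to 0.12).

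All 6 subunits of the helicase had negative estimates for STING KO against WT after radiation, from -0.24 to -0.062 on the log2 scale with a median of -0.15, also under median-of-ratios and quantile scaling. Of these, 4 (66.7%) had an unadjusted p under 0.05, against 17.9% of all tested genes, and 4 had non-overlapping groups, against 24.1%. These counts include the called genes MCM7 and MCM3. Without radiation 5 of the 6 estimates were negative, with a median of -0.074. There 2 (33.3%) had an unadjusted p under 0.05, against 14.3%, and 3 (50%) had non-overlapping groups, against 20.6%. No subunit passed the test for a difference between the radiation effects. In irradiated cells the 4 GINS subunits (median -0.18) and the 5 chromatin genes (median -0.067) also had only negative estimates. RFC had 2 positive and 3 negative estimates, and RPA 2 positive and 1 negative. Over the 53 genes in this comparison the median was -0.069, against -0.017 for all tested genes, with 17 positive and 36 negative estimates. The TPM of MCM2 was 177, 167 and 186 in unirradiated WT, 220.3, 222 and 181 in irradiated WT, 193, 211 and 174 in unirradiated STING KO and 162, 185 and 187 in irradiated STING KO libraries. MCM2 overlapped between irradiated groups, with log2 fold changes of -0.22 ± 0.097 (SE, adjusted p = 0.27 by limma) for STING KO against WT after radiation and 0.23 ± 0.097 (SE, adjusted p = 0.24 by limma) for radiation in WT cells. MCM6 stayed between 165 and 179 TPM in all 12 libraries, the smallest ratio of highest to lowest library among the 53 genes (1.08).

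**Figure D3:**
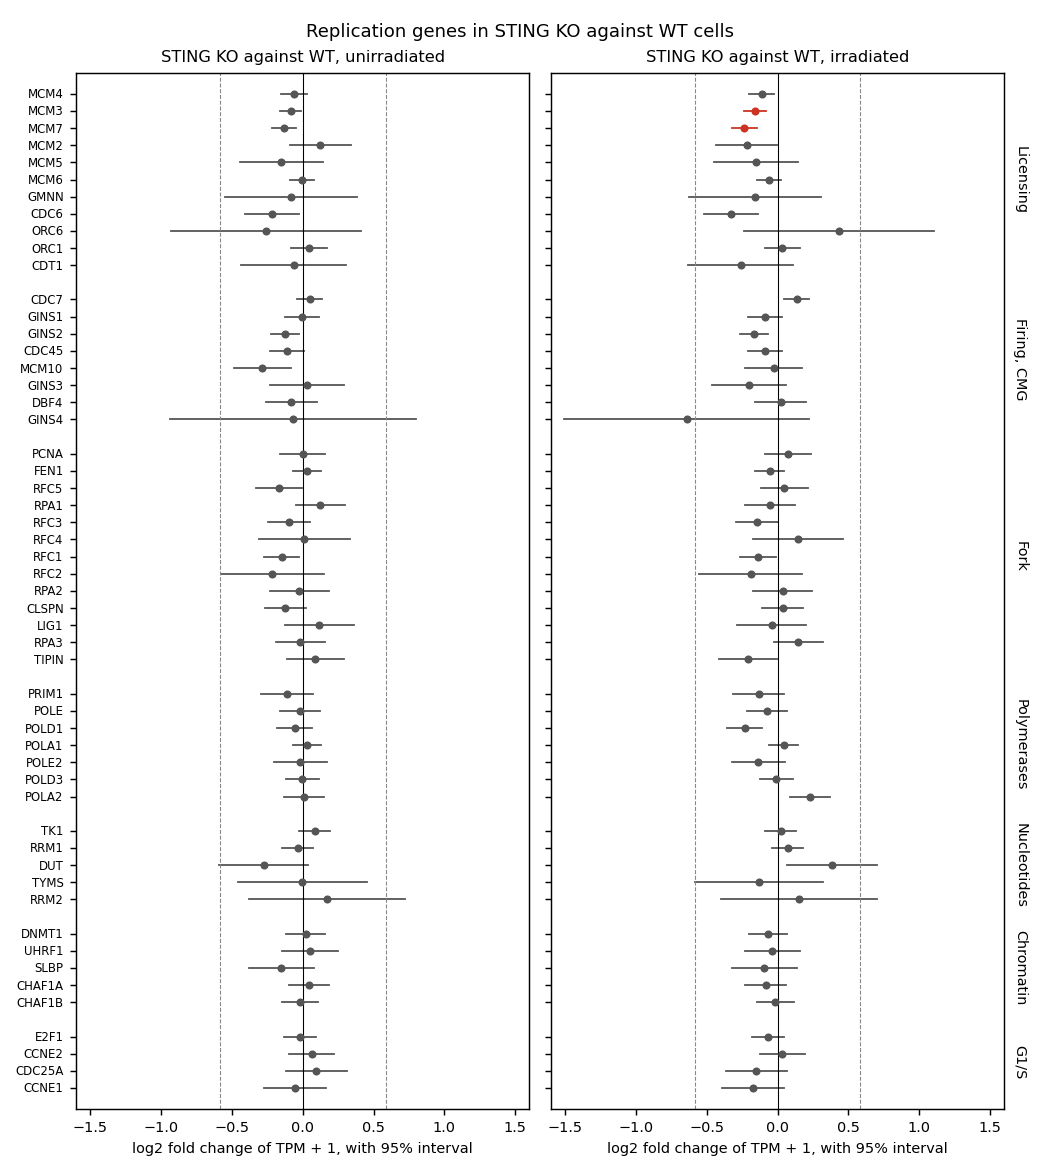
Log2 fold change of TPM + 1 in STING KO against WT cells for the 53 genes, without radiation (left) and after 4 daily fractions of 2 Gy (right), with 95% intervals from limma (3 against 3 libraries). Red marks an adjusted p under 0.05 and dashed lines mark a 1.5-fold change. MCM3 and MCM7 in irradiated cells are the 2 red intervals, both below 0.

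Other estimates in irradiated cells came close to the threshold. CDC6 had TPM values of 85.9, 70.6 and 74.1 (WT, unirradiated), 82.6, 93.8 and 93.6 (WT, irradiated), 62.001, 65.4 and 69.98 (STING KO, unirradiated) and 69.2, 68.5 and 76.5 (STING KO, irradiated). CDC6, which recruits the helicase to origins, was lower in every irradiated STING KO than in every irradiated WT library, with a log2 change of -0.33 ± 0.085 (SE, adjusted p = 0.067 by limma) there and -0.22 ± 0.085 (SE, adjusted p = 0.28 by limma) in unirradiated cells, where the groups did not overlap either. POLD1 had a log2 change of -0.23 ± 0.056 (SE, adjusted p = 0.052 by limma), and POLA2 one of 0.23 ± 0.063 (SE, adjusted p = 0.08 by limma) in the opposite direction. In the unirradiated WT libraries GINS2 stood at 66.6, 71.1 and 72.8 TPM, in the irradiated WT libraries at 69.1, 67.9 and 69.7, in the unirradiated STING KO libraries at 63.1, 66.1 and 63.3 and in the irradiated STING KO libraries at 62.1, 61.9 and 59.9. GINS2, a subunit of the GINS complex, had non-overlapping groups in each arm and log2 fold changes of -0.17 ± 0.045 (SE, adjusted p = 0.077 by limma) after and -0.13 ± 0.045 (SE, adjusted p = 0.23 by limma) without radiation. CDC7, the kinase that phosphorylates the loaded helicase, had a log2 change of 0.14 ± 0.039 (SE, adjusted p = 0.098 by limma) in the upward direction. In this comparison 12 genes (22.6%) had an unadjusted p under 0.05, 9 lower and 3 higher in STING KO cells. Over all tested genes the share was 17.9%, of which 1766 of 2855 were lower. Groups did not overlap for 15 genes (28.3%), against 24.1% of all tested genes.

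The widest intervals belonged to genes whose libraries split within a group. The TPM of ORC6 was 98.7, 58.2 and 53.4 in unirradiated WT, 58.98, 66.9 and 64.3 in irradiated WT, 47.8, 51.9 and 71.3 in unirradiated STING KO and 52.2, 113 and 107 in irradiated STING KO libraries. ORC6, a subunit of the origin recognition complex, had 1 high library in unirradiated WT and 1 low library in irradiated STING KO cells, and its log2 fold changes for STING KO against WT were -0.26 without and 0.43 after radiation, with overlapping groups. After radiation of STING KO cells it was 0.60 (95% interval -0.067 to 1.28, limma adjusted p = 0.33). GINS4 was measured at 10.5, 12.3 and 27.6 TPM in WT and 12.1, 19.97 and 12.9 in STING KO cells without radiation, and at 12.4, 29.03 and 31.8 in WT and 14.3, 12.6 and 15.7 in STING KO cells after it. GINS4 had 1 high library of 3 in unirradiated WT and 1 low library of 3 in irradiated WT cells, a log2 change of 0.53 ± 0.39 (SE, adjusted p = 0.54 by limma) after radiation of WT cells, and one of -0.64 for STING KO against WT after radiation (95% interval -1.51 to 0.22, adjusted p = 0.45). RRM2 ranged from 42.3 to 61.6 TPM in the other libraries and stood at 97.1 TPM in irradiated STING KO replicate 2.

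**Figure D4:**
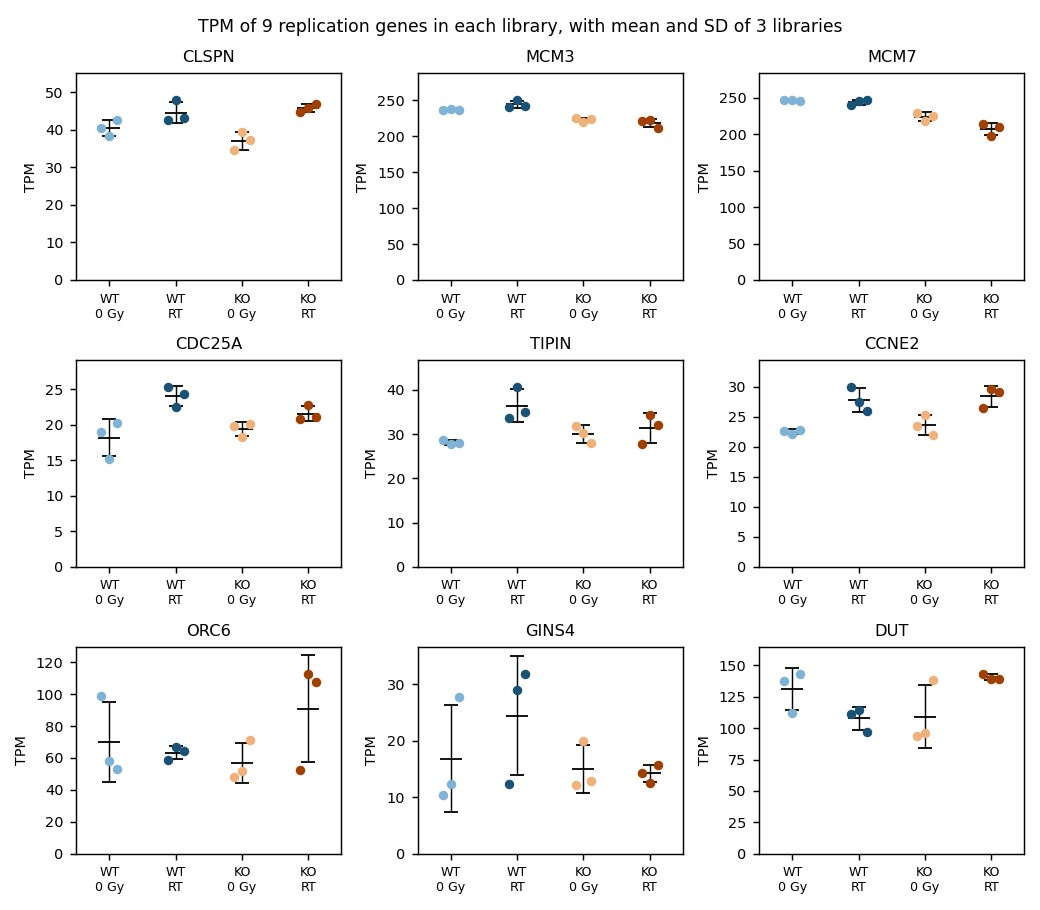
TPM of 9 of the genes in each library (points), with the mean and SD of the 3 libraries of each group (0 Gy: unirradiated, RT: after 4 daily fractions of 2 Gy). CLSPN is higher in every irradiated than in every unirradiated STING KO library, MCM3 and MCM7 are lower in every STING KO than in every WT library, and ORC6, GINS4 and DUT split within groups.

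Whether radiation acted differently in the STING KO and WT lines was tested as the difference between their radiation effects. None of the 53 genes passed, against 0.0188% of all tested genes (3), and 4 genes had an unadjusted p under 0.05, DUT, POLA2, MCM2 and TIPIN, or 7.55% of the 53 against 6.61% of all tested genes. The difference was 0.22 ± 0.089 (SE, adjusted p = 0.74 by limma) for POLA2, -0.34 ± 0.14 (SE, adjusted p = 0.74 by limma) for MCM2 and -0.30 ± 0.13 (SE, adjusted p = 0.74 by limma) for TIPIN. For POLD1 it was -0.18 ± 0.080 (SE, adjusted p = 0.75 by limma). The median difference over the 53 genes was -0.051, against -0.0024 for all tested genes. The 95% interval stayed within 1.5-fold for 44 genes and within 2-fold for 50, against 8839 and 13107 of the 15973 tested genes.

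The same libraries did show lower mitosis genes after radiation. Of 23 mitosis genes, 7 fell in WT cells and 9 in STING KO cells past the threshold, and none rose past it. The median log2 fold changes were -0.21 and -0.22. Estimates were negative for 21 and positive for 2 genes in WT cells, and negative for 19 and positive for 4 in STING KO cells. The list was compiled with earlier results of these data known, so these counts do not test whether mitosis genes as a class fell. Over all tested genes 3.74% and 3.69% were called, 240 of 597 and 271 of 590 of them downward. KIF20A, a mitotic kinesin, fell from 129, 130.4 and 124 TPM to 85.9, 81.6 and 81.6 TPM in WT cells and from 154, 143 and 146 TPM to 102, 96.6 and 99.3 TPM in STING KO cells. Its log2 fold changes were -0.62 ± 0.046 (SE, adjusted p = 9.3e-05 by limma) and -0.56 ± 0.046 (SE, adjusted p = 1.9e-04 by limma). CENPE, CENPF, CDC20, TPX2 and CCNB2 also fell in each line, KIF11 in WT cells, and CCNB1, CDC25C and BUB1B in STING KO cells. The difference between the radiation effects of the lines did not pass the test for any of the 23 genes. The proliferation marker MKI67 had log2 fold changes of -0.22 ± 0.22 (SE, adjusted p = 0.68 by limma) and -0.51 ± 0.22 (SE, adjusted p = 0.25 by limma). Irradiated STING KO replicate 3 stood at 72.1 TPM against 149 and 148 TPM in the other libraries of its group. Without it the MKI67 log2 fold changes were -0.22 (adjusted p = 0.047) in WT and -0.17 (adjusted p = 0.17) in STING KO cells by limma. The summed TPM of the mitosis genes was 3680 to 3937 in unirradiated and 3340 to 3454 in irradiated WT libraries, and 3890 to 3966 and 3547 to 3600 in STING KO libraries. The counts of genes that fell were 3 and 3 when only the libraries of each comparison were fitted, 5 and 4 with the replicate block and 5 and 5 with eBayes without trend. With 1 library left out they ranged from 4 (without irradiated WT replicate 1) to 8 in WT cells and from 2 to 9 in STING KO cells, with 2 to 4 in the fits without any 1 of the 6 STING KO libraries. For STING KO against WT, 17 of the 23 estimates were positive without and 18 after radiation, with medians of 0.064 and 0.11 and 1 call in each, against 1.73% and 3.59% of all tested genes. CDC20, which activates the anaphase-promoting complex, was higher in STING KO cells without radiation, by 0.27 ± 0.043 (SE, adjusted p = 0.01 by limma), and KIF20A after it, by 0.26 ± 0.046 (SE, adjusted p = 0.013 by limma). Both calls were lost when only the libraries compared were fitted, and that of KIF20A also without irradiated WT replicate 2 or 3.

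A further list of 46 replication genes outside the 53, such as the remaining origin recognition subunits, the accessory polymerase subunits and the atypical E2F factors, gave 2 calls after radiation in WT cells, 3 in STING KO cells and 1 in each comparison of STING KO with WT, with medians of 0.017, 0.020, 0.00059 and -0.026. Over all tested genes the shares called were 3.74%, 3.69%, 1.73% and 3.59%. CDKN1A, the cyclin-dependent kinase inhibitor p21, accounted for 1 call in each, and passed in all 4 comparisons under every alternative run. CDKN1A had TPM values of 26.8, 28.9 and 23.5 (WT, unirradiated), 48.98, 46.1 and 42.6 (WT, irradiated), 16.3, 15.7 and 15.4 (STING KO, unirradiated) and 27.6, 23.4 and 22.6 (STING KO, irradiated). It rose after radiation by 0.78 ± 0.093 (SE, adjusted p = 0.0016 by limma) in WT and 0.60 ± 0.093 (SE, adjusted p = 0.0068 by limma) in STING KO cells, and was lower in STING KO than in WT cells, with log2 fold changes of -0.70 ± 0.093 (SE, adjusted p = 0.0033 by limma) without and -0.88 ± 0.093 (SE, adjusted p = 4.2e-04 by limma) after radiation. CCNA2, the S and G2 phase cyclin A, fell after radiation, with log2 fold changes of -0.20 ± 0.037 (SE, adjusted p = 0.018 by limma) in WT and -0.21 ± 0.037 (SE, adjusted p = 0.013 by limma) in STING KO cells. ATAD5, which unloads PCNA, rose in STING KO cells by 0.23 ± 0.053 (SE, adjusted p = 0.044 by limma), with 0.15 (adjusted p = 0.17) in WT cells. The ATAD5 call was lost in all 12 fits with 1 library left out and under 5 of 8 other settings. That of CCNA2 was lost when only the libraries compared were fitted, in WT cells also without unirradiated WT replicate 1 or irradiated WT replicate 2 or 3, and in STING KO cells also without unirradiated STING KO replicate 2, where 1 gene of the list was left.

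**Figure D5:**
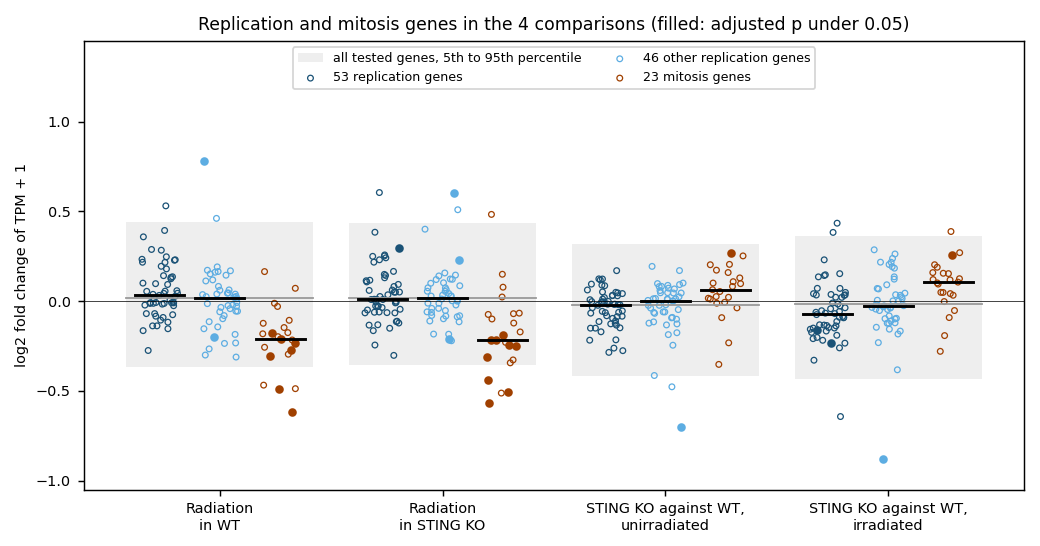
Log2 fold change of TPM + 1 of the 53 replication genes, 46 other replication genes and 23 mitosis genes in each comparison. Filled points have a limma adjusted p under 0.05, black bars are list medians, and grey bands show the 5th to 95th percentile of all tested genes with their median as a grey line. After radiation the mitosis medians lie near -0.21, while those of both replication lists lie near 0. The lists were compiled with earlier results of these data known.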

How the data were processed

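RNA-Seq of polyadenylated RNA from FaDu cells was deposited by the authors as a table of TPM for 58288 genes in 12 libraries. The submitters' processing notes name HISAT2, StringTie, DESeq2 and hg38. The annotation and strand setting are not given in the sources used here, and TPM keeps no read depth. Table columns were matched to samples through the guide names NT2 (non-targeting, WT) and, as the other line, A63 (STING KO), the radiation arm and the replicate number. The 15973 genes that reached a TPM of 1 in at least 3 libraries were transformed to log2(TPM + 1) and fitted with limma 3.58.1 in R 4.3.3 (4 group means, 8 residual degrees of freedom, eBayes with trend), with Benjamini-Hochberg adjustment over all genes tested. The authors used DESeq2, which needs counts. The code was tested on simulated data. Genes were placed with GENCODE release 29 (GRCh38), where 49 of the 53 versioned identifiers matched. The gene lists and their members were chosen with earlier results of these data known. Values in all 12 libraries are given for genes past the threshold, the 5 with the smallest p in a comparison with fewer than 5 calls, and the largest change of each role in each comparison. From the other lists, genes past the threshold, CCNA2, MKI67 and CDKN1A are named. E2F1, PCNA, TYMS, TK1, RRM1, RRM2, CHAF1B, DNMT1, MCM6, CDC7 and RPA3 were added after their values were seen. As alternatives the pseudocount was set to 0.1, the filter was dropped or replaced by a mean TPM of 5 or more, libraries were scaled by median-of-ratios factors or quantiles, the eBayes trend was dropped, the replicate number entered as a block, and the fit was limited to the compared libraries or left out each library in turn.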

Additional observations from a re-analysis of the deposited data

How the results depend on the processing

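The number of the 53 genes past the threshold was small under every alternative run. After radiation in WT cells it was 0, and 2 when only genes averaging 5 TPM or more were tested (CDC25A and CCNE2). With 1 library left out it ranged from 0 to 1, with CDC25A passing without unirradiated WT replicate 3 and TIPIN without irradiated STING KO replicate 1. After radiation in STING KO cells the count of 1 became 0 with no filter on low values, median-of-ratios factors, quantile normalization, the replicate block and only the libraries compared, and ranged from 0 to 1 with 1 library left out. Without unirradiated STING KO replicate 3 the gene called was DUT (log2 fold change 0.56), not CLSPN. For STING KO against WT after radiation the count of 2 became 1 with median-of-ratios factors, eBayes without trend and the replicate block, 0 with only the libraries compared and 3 among genes averaging 5 TPM or more (with POLD1), and ranged from 1 to 3 with 1 library left out (CDC6 passing without unirradiated WT replicate 1). No gene was called for STING KO against WT without radiation or for the difference between radiation effects in any setting run. Fits to only the libraries compared hold fewer samples. The cause of the other changes was not tested.

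The median log2 fold change of the 53 genes after radiation was 0.013 in WT and -0.010 in STING KO cells with median-of-ratios factors, and ranged from 0.023 to 0.041 and from -0.0067 to 0.026 with 1 library left out. For STING KO against WT without radiation it was 0.0041 with median-of-ratios factors and 0.0029 with quantile normalization, and ranged from -0.048 to -0.0078 with 1 library left out. After radiation it was -0.047 and -0.041 under these scalings, and -0.079 to -0.044 with 1 library left out. For the difference between radiation effects the range was -0.060 to -0.019. Among 46 pairs of a named gene and a comparison, 2 changed sign, neither being past the threshold. They were CDC25A for STING KO against WT without radiation (-0.021 without unirradiated WT replicate 2, up to 0.17 without replicate 3) and ORC6 in the same comparison (0.0096 without unirradiated WT replicate 1, down to -0.43 without unirradiated STING KO replicate 3).

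Replicate numbers did not mark shared deviations. Same-numbered libraries had correlations of -0.060 to 0.064 over 18 pairs, and 4 of 12 libraries matched best with their own number. With the replicate block the counts were 0, 0, 0, 1 and 0 in the order given above, and the medians were unaltered at 0.032, 0.0099, -0.020, -0.069 and -0.051.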

Other observations

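Genes of the list differed in how much their libraries varied within a group. The mean coefficient of variation within groups was 34.7% for GINS4 at 17.6 TPM and 25.2% for ORC6 at 70.3 TPM. It was 1.56% for MCM3 at 231 TPM, 1.96% for CDC7 at 79.4 TPM and 2.56% for POLA1, the catalytic subunit of polymerase alpha, at 46.2 TPM. GMNN, which encodes the CDT1 inhibitor geminin, had 1 library apart from the others in each irradiated group, with 134 TPM in irradiated WT replicate 3 against 82.1 and 84.7 TPM, and 121 TPM in irradiated STING KO replicate 1 against 75.4 and 73.4 TPM. CDT1 itself stood at 63.3 TPM in unirradiated STING KO replicate 1 and at 38.1 and 37.2 TPM in the other libraries of that group. GMNN, CDT1 and MCM6 were chosen after their values were seen.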
